A study of Mus musculus with 32 samples.

Results

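Nr1d1, Nr1d2 and Rora encode the nuclear receptors REV-ERB alpha, REV-ERB beta and ROR alpha, whose transcripts were followed in the livers of mice under chronic jet lag (CJ) and of mice kept on a steady light schedule (NS). They were found on the arrays through the RefSeq identifier of each probe, which gave 1 probe per gene. These were 3 of the 23119 features (genes, or transcripts without a symbol) that were tested. REV-ERB and ROR proteins recognise the same DNA sequence, the ROR element. ROR proteins activate transcription from it, and REV-ERB proteins, which bind haem, repress it with the corepressor NCOR1 and the histone deacetylase HDAC3. In the liver clock, the activators BMAL1 (gene Arntl) and CLOCK switch on the REV-ERB genes through E-boxes, and the REV-ERB proteins in turn repress Arntl, which closes a second loop of the oscillator and also acts on lipid and glucose genes.

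All 32 mice were male wild-type C57BL/6 animals housed singly, with 1 mouse per array and 16 mice per schedule. From 4 weeks of age CJ mice were transferred back and forth between 2 rooms in which the lights came on 8 h apart, whereas NS mice stayed in 12 h of light and 12 h of darkness. Livers were snap-frozen from mice aged 30 or 12 weeks, at 3 zeitgeber times (ZT, counted in hours from the light coming on): ZT2, ZT10 and ZT18. Of the 12 groups this gave, the 4 at ZT2 held 2 animals each and the other 8 held 3. How ZT in CJ mice relates to their last transfer is not given in the labels, and the animals carried no transgene or deletion according to them. Of 55681 probes, each array had 24199 to 32355 well above background. Precision is limited by the number of arrays. All 8 hepatocyte markers were well above background on all arrays. Markers of skeletal muscle and of the pancreatic acinus were also detected, at levels that differed between mice, and their values stand beside the results they move with.

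Levels are given as log2 of the scanner's processed signal relative to the 75th percentile of the same array, so that 0 is the level of that percentile. Levels of different genes come from different probes and were not compared with each other. In whole liver, fewer cells of a type and less RNA per cell cannot be told apart.

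The bases just upstream of the start sites of Nr1d1 (chr11:98775378-98775627, minus strand) and Nr1d2 (chr14:18239107-18239356, minus strand) are shown. These genes were chosen because both had their lowest NS mean at ZT18, which for Nr1d2 was not separated from ZT2 by the test. Both sequences come from the RefSeq table (GRCm38.p6), cover 250 bases each and run 5′ to 3′ on the gene's strand.
Nr1d1: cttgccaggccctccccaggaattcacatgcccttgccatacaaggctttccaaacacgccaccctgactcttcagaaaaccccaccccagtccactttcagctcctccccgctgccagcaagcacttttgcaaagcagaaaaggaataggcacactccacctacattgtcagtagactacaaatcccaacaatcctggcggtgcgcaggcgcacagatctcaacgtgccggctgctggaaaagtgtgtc
Nr1d2: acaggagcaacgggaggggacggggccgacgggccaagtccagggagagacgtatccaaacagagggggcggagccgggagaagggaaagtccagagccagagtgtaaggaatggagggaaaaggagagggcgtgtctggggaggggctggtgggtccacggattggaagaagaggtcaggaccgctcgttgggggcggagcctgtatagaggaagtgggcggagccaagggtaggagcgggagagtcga
In a window that also took in the first 50 bases of the gene, a search on both strands found no E-box (CACGTG), no ROR element core (TAGGTCA or TGGGTCA) and no D-box (TTA followed by TGTAA or CGTAA) in Nr1d1, Nr1d2 or Rora. Of 27025 genes in the table, 8.09% held the E-box, 2.97% TAGGTCA, 4.57% TGGGTCA and 1.23% the D-box in a window of that length. The absence of these letters says nothing about sites elsewhere in the genes.

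The same search was made in 20 genes described in the literature as REV-ERB or ROR targets, of which 14 had a window in the table. TAGGTCA was found in 4 of the 14 and TGGGTCA in 1. Those 5 matches are shown with 11 bases on either side, on the gene's strand, with the core in capitals, since the results below set these genes beside the receptors. They lie at chr7:113207530-113207558, plus strand (Arntl), chr13:52981034-52981062, minus strand (Nfil3), chr1:121328206-121328234, minus strand (Insig2), chr11:101367651-101367679, plus strand (G6pc) and chr4:86670260-86670288, minus strand (Plin2) in GRCm38.p6.
Arntl: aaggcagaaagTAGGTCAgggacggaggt
Nfil3: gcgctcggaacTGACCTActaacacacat
Insig2: tgcttggtcttTGACCCAagtctctcgag
G6pc: cagggctggatTGACCTAcagactgaatc
Plin2: ttcaggaccccTGACCTAagtcagacagc
TGACCTA and TGACCCA are the same cores read on the other strand, and none of these matches overlapped another motif searched. The first base of the core lay at +31 in Arntl, at -12 in Nfil3, at -199 in Insig2, at -54 in G6pc and at -218 in Plin2, counted from the annotated start. A match is a description and not a binding site.

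At ZT18 Nr1d1 stood far higher in CJ mice than in NS mice, whose daily trough fell there. In CJ mice of 30 weeks the levels were 1.06 and 1.82 at ZT2, 0.20, 0.10 and -0.65 at ZT10, and -0.64, -0.61 and -0.43 at ZT18. In NS mice of 30 weeks they were 1.16 and -0.04 at ZT2, 1.88, 1.1 and 0.10 at ZT10, and -3.26, -4.81 and -6.11 at ZT18. The NS mice at ZT18 thus lay below every other mouse of that age, and 1 of their 3 arrays was well above background.

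At 12 weeks the picture was alike. CJ mice had 1.93 and 1.79 at ZT2, 0.14, -1.23 and -0.78 at ZT10, and -0.93, -0.55 and -1.2 at ZT18. NS mice had -0.04 and 0.85 at ZT2, 0.76, 1.25 and 1.29 at ZT10, and -4.59, -5.77 and -3.27 at ZT18. In this last group 0 of 3 arrays were well above background, so its level is only bounded from above. The schedules did not overlap at ZT2, ZT10 and ZT18 at 12 weeks and at ZT18 at 30 weeks, with CJ mice higher except at ZT10. Across all features the shares without overlap were 44%, 18.4% and 19.7% at 12 weeks and 23.3% at ZT18 at 30 weeks.

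Nr1d2, the REV-ERB paralogue with the same DNA target, was nearly level in CJ mice and peaked at ZT10 in NS mice. In CJ mice of 30 weeks it stood at 1.42 and 0.67 at ZT2, at 1.18, 1.58 and 1.36 at ZT10, and at 1.19, 1.12 and 1.18 at ZT18. In NS mice of 30 weeks it stood at -0.02 and -0.52 at ZT2, at 2.01, 1.82 and 1.2 at ZT10, and at -0.76, -0.70 and -0.42 at ZT18. All CJ mice of this age lay above all NS mice at ZT2 and ZT18, and the schedules overlapped at ZT10.

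The 12-week mice showed the same order. CJ mice had 0.78 and 1.47 at ZT2, 1.42, 0.95 and 1.06 at ZT10, and 1.07, 1.12 and 0.90 at ZT18. NS mice had -0.03 and -0.40 at ZT2, 1.31, 1.84 and 1.60 at ZT10, and -1.02, -0.28 and -0.79 at ZT18. Again the schedules overlapped at ZT10 and nowhere else. At ZT10 14.7% of all features did not overlap at 30 weeks. For comparison, 52.4% of all features did not overlap at ZT2 at 30 weeks, where each schedule has 2 mice.

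Rora, the activator at ROR elements, varied over a narrow span, with levels of 1.17 to 2.29 on the 32 arrays. CJ mice of 30 weeks had levels of 1.49 and 1.47 at ZT2, 1.17, 2.00 and 1.83 at ZT10, and 2.01, 1.49 and 1.29 at ZT18. Their NS counterparts had 2.24 and 2.13 at ZT2, 2.07, 1.77 and 1.28 at ZT10, and 2.02, 1.84 and 1.91 at ZT18. The schedules overlapped at ZT10 and ZT18, and CJ mice lay lower at ZT2.

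At 12 weeks Rora in CJ mice stood at 2.11 and 1.79 at ZT2, 1.69, 2.02 and 1.58 at ZT10, and 1.75, 1.61 and 1.30 at ZT18. NS mice of 12 weeks had 2.28 and 2.29 at ZT2, 2.12, 2.06 and 1.94 at ZT10, and 1.81, 2.22 and 1.71 at ZT18. Here too the schedules separated at ZT2 and overlapped at the other times, but with 2 mice per schedule at ZT2, 52.4% of all features at 30 weeks and 44% at 12 weeks did so as well. The CJ mean of Rora was the lower one in 6 of 6 pairs of groups matched for time and age. How often this held over all features was not counted, and none of the 6 differences passed the test given below.

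**Figure D1:**
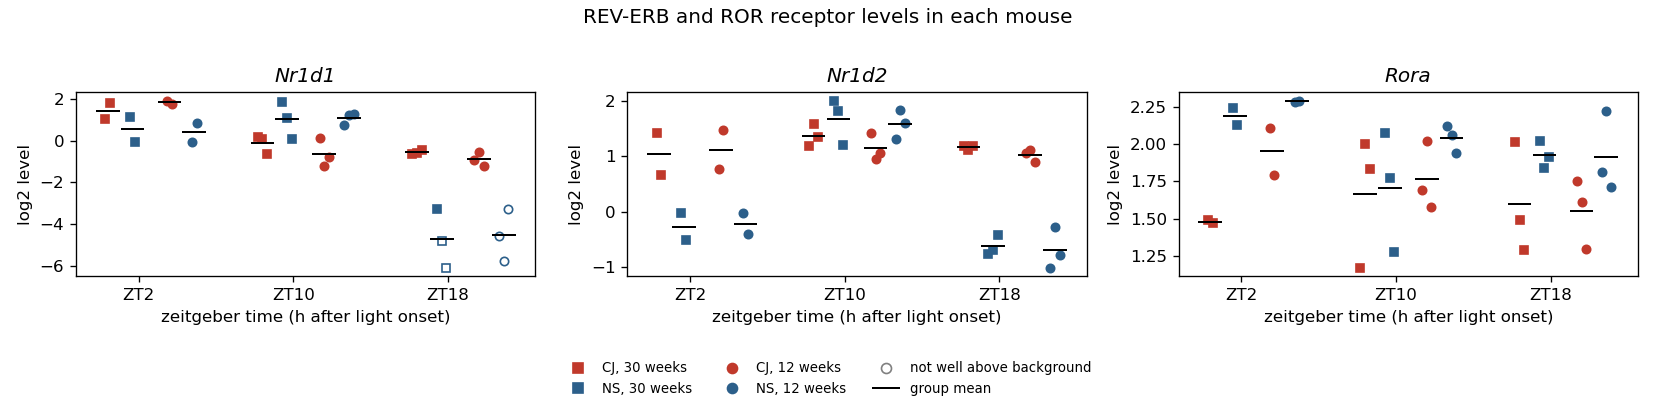
Levels of Nr1d1, Nr1d2 and Rora in each mouse (y axis, log2 relative to the 75th percentile of the array) by ZT in hours (x axis), with CJ in red, NS in blue, 30 weeks as squares and 12 weeks as circles. Bars are group means of 2 or 3 mice, open symbols are arrays not well above background, and the NS mice at ZT18 hold the lowest Nr1d1 and Nr1d2 levels.

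Ordered by mean level over the 12 groups, Nr1d1 was highest in CJ mice at ZT2 (1.44 ± 0.54 at 30 weeks and 1.86 ± 0.10 at 12 weeks, SD, n = 2 each) and lowest in NS mice at ZT18 (-4.73 ± 1.43 at 30 weeks and -4.54 ± 1.25 at 12 weeks, SD, n = 3 each). Among the 11 pairs of neighbours in that order, 1 pair did not overlap, namely CJ and NS mice at ZT18 of 12 weeks (-0.89 ± 0.33 in CJ mice, SD, n = 3). Nr1d2 also had 1 such step. It separated the 6 CJ groups and the NS groups at ZT10, with means of 1.03 to 1.68, from the 4 NS groups at ZT2 and ZT18, with means of -0.70 to -0.22. The 6 CJ means of Nr1d2 lay between 1.03 ± 0.12 (ZT18, 12 weeks, SD, n = 3) and 1.37 ± 0.20 (ZT10, 30 weeks, SD, n = 3), and no neighbours among them were separated. Rora was lowest in CJ mice at ZT2 of 30 weeks with 1.48 ± 0.01 and highest in NS mice at ZT2 of 12 weeks with 2.29 ± 0.01 (SD, n = 2 each), and 2 of its 11 steps were free of overlap. Both of these steps border an NS group at ZT2 with n = 2. Steps free of overlap were not counted over all features, so the counts for the 3 genes only describe their order.

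Variation over the day was tested within each schedule and age (limma, 3 times, n = 8 mice). The daily range was taken as the span from the lowest to the highest fitted mean on the log2 scale. Both REV-ERB genes varied in NS mice at either age, and in CJ mice Nr1d1 passed at 12 weeks. Counts of separate tests do not compare the schedules, which the interaction below does. In CJ mice of 30 weeks the range of Nr1d1 was 1.90 (adjusted p = 0.204), that of Nr1d2 0.29 (adjusted p = 0.762) and that of Rora 0.13 (adjusted p = 0.943), so 0 of 3 passed, against 3.62% of all features (837). At an unadjusted p under 0.05, Nr1d1 passed in 4 of 4 such tests, Nr1d2 in 2 and Rora in 0. At that cut 3858 (CJ) and 5468 (NS) of the 23119 features passed at 30 weeks, and 4462 (CJ) and 7141 (NS) at 12 weeks. In NS mice of 30 weeks Nr1d1 ranged over 5.88 (adjusted p = 6.6e-07) and Nr1d2 over 2.28 (adjusted p = 3.83e-06), while Rora at 0.28 did not pass (adjusted p = 0.70). The fitted Nr1d1 value rests on a ZT18 group with 1 of 3 arrays well above background. In the processed signals it was at least 5.41 from ZT10 to ZT18 when signals below the lowest one well above background on their array were set to that one. These are 2 of 3 genes, against 11.2% of all features.

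At 12 weeks Nr1d1 varied in CJ mice with a range of 2.51 (adjusted p = 0.025), whereas Nr1d2 with 0.10 (adjusted p = 0.975) and Rora with 0.32 (adjusted p = 0.666) did not pass. That is 1 of 3 genes, against 5.7% of all features. In NS mice of 12 weeks, with 0 of 3 arrays well above background at ZT18, the range of Nr1d1 in the processed signals was at least 5.18. This bound carries no test, and the test of the fitted values gave an adjusted p of 8.65e-07. The fitted range was 2.35 for Nr1d2 (adjusted p = 1.7e-06) and 0.51 for Rora (adjusted p = 0.205). The 2 REV-ERB genes passed, against 17.4% of all features. The Nr1d1 call in CJ mice was lost with slide as a fixed block (range 2.58, adjusted p = 0.101) and without CJ ZT2 mouse 1 (2.16, adjusted p = 0.21) or mouse 2 (2.86, adjusted p = 0.121).

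Pairs of times were compared next. In CJ mice of 12 weeks Nr1d1 was highest at ZT2, and changed by -2.51 ± 0.63 at ZT10 (SE, n = 3 and 2, adjusted p = 0.0251) and by -2.47 ± 0.63 at ZT18 (adjusted p = 0.0176). At 30 weeks the CJ difference of ZT18 from ZT2 was -1.90 ± 0.63 (adjusted p = 0.0805). Both CJ calls at 12 weeks were lost without either ZT2 mouse (adjusted p = 0.0635 to 0.139) and with slide as a fixed block (adjusted p = 0.0651 and 0.102). The first was also lost without ZT10 mouse 2 (-2.34, adjusted p = 0.0721) or mouse 3 (-2.43, adjusted p = 0.0716), with the marker covariates described below (-2.17, adjusted p = 0.114) and in a fit of that age alone (-2.21, adjusted p = 0.0539), and the second without ZT18 mouse 3 (-2.24, adjusted p = 0.0671). In NS mice Nr1d1 changed by -5.88 ± 0.57 at ZT18 relative to ZT10 at 30 weeks as fitted (SE, n = 3 each, adjusted p = 1.11e-06), where the ZT10 level was at least 42.6-fold that at ZT18 with dim signals set as above. At 12 weeks, where the trough is only bounded, the ZT10 level was at least 36.3-fold and the ZT2 level at least 22.4-fold that at ZT18. These folds hold for the processed signals only. In other settings the NS difference of Nr1d1 at ZT18 from ZT10 shrank to -2.87 at 30 weeks and -2.52 at 12 weeks. The 12-week difference at ZT18 from ZT2 shrank to -1.85. Nr1d2, by contrast, was higher at ZT10 than at ZT2 in NS mice by 1.93 ± 0.27 at 30 weeks (SE, n = 3 and 2, adjusted p = 7.73e-05) and by 1.80 ± 0.27 at 12 weeks (adjusted p = 0.000111). It then fell by 2.28 ± 0.24 at 30 weeks and by 2.35 ± 0.24 at 12 weeks at ZT18 relative to ZT10 (SE, n = 3 each, adjusted p = 3.87e-06 and 1.44e-06). Over all features 5.75% passed for ZT18 against ZT2 in CJ mice of 30 weeks, and in CJ mice of 12 weeks 3.94% for ZT10 against ZT2 and 8% for ZT18 against ZT2. In NS mice the shares were 10.2% at 30 weeks and 14.3% at 12 weeks for ZT18 against ZT10, 6.96% and 8.27% for ZT10 against ZT2, and 5.34% at 12 weeks for ZT18 against ZT2.

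Whether the daily profile itself differed between schedules was tested as an interaction of schedule with time (limma, n = 16 mice per age). Its range is the highest minus the lowest of the differences between CJ and NS mice over the 3 times. At 30 weeks the range was 5.19 for Nr1d1 (adjusted p = 0.00344), 2.00 for Nr1d2 (adjusted p = 0.0058) and 0.41 for Rora (adjusted p = 0.808). At 12 weeks it was 5.66 for Nr1d1 (adjusted p = 0.00166), 2.29 for Nr1d2 (adjusted p = 0.00225) and 0.23 for Rora (adjusted p = 0.892). Both REV-ERB genes thus passed at each age, 2 of 3 genes, against 1.97% of all features at 30 weeks and 1.9% at 12 weeks. For Nr1d1 the ranges are fitted values, since the NS mice at ZT18 had 1 of 3 arrays well above background at 30 weeks and 0 of 3 at 12 weeks. Their size depends on how signals near background are treated: after normexp its NS range was 2.87 at 30 weeks and 2.52 at 12 weeks, with the calls kept. With slide as a fixed block, Nr1d2 at 30 weeks had a range of 1.87 and did not pass (adjusted p = 0.114).

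Muscle transcripts moved with some of these groups, among them the NS mice at ZT18 whose Nr1d1 and Nr1d2 levels set the ranges. The mean level of 12 skeletal muscle markers in CJ mice at ZT18 was 1.62 (-1 to 3.05, n = 3) at 30 weeks, with 10 to 12 genes well above background, and -2.0 (-3.77 to 1.24, n = 3) at 12 weeks, with 4 to 11. In NS mice at ZT18 it was 1.22 (0.28 to 1.88, n = 3) at 30 weeks and 0.73 (0.23 to 1.05, n = 3) at 12 weeks, with 11 or 12 of the 12 genes well above background. In NS mice at ZT2 and ZT10 the group means lay between -3.19 and -2.22. With the muscle and pancreatic acinar marker levels as covariates, the 12-week interaction ranges were 4.88 for Nr1d1 (adjusted p = 0.1) and 1.84 for Nr1d2 (adjusted p = 0.104), whereas both 30-week calls were kept.

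At single times the difference between schedules lay mainly at ZT18. At 30 weeks Nr1d1 was higher in CJ mice at ZT18 by 4.25 ± 0.55 as fitted (SE, n = 3 each, adjusted p = 0.000258), or at least 14.2-fold, with 1 of 3 NS arrays well above background. Nr1d2 was higher by 1.73 ± 0.24, which is 3.31-fold (adjusted p = 0.000368), so that 2 of 3 genes passed against 3.47% of all features. At 12 weeks Nr1d1 was at least 9.11-fold higher at ZT18, with an adjusted p of 0.000363 for the fitted difference and not for the bound. Nr1d2 was higher by 1.82 ± 0.24, which is 3.53-fold (adjusted p = 0.000168), so 2 of 3 genes passed against 2.83% of all features. Both Nr1d1 bounds hold for the processed signals only: after normexp the Nr1d1 difference was 1.57 at 30 weeks (adjusted p = 0.000765) and 1.22 at 12 weeks (adjusted p = 0.00929). With both marker levels as covariates these 4 calls were kept, with 4.33 for Nr1d1 and 1.75 for Nr1d2 at 30 weeks and 3.53 and 1.61 at 12 weeks (adjusted p = 0.000343, 0.000414, 0.00611 and 0.00382). At 30 weeks, with all 3 CJ mice between -0.64 and -0.43 for Nr1d1, even the highest NS mouse lay at -3.26.

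At ZT2 Nr1d2 was higher in CJ mice of 30 weeks by 1.37 ± 0.30, which is 2.58-fold (SE, n = 2 each, adjusted p = 0.0189), 1 of 3 genes against 1.36% of all features. That call rested on single mice, since it was lost without CJ mouse 1 (0.91, adjusted p = 0.397), NS mouse 1 (1.57, adjusted p = 0.0675) or NS mouse 2 (1.17, adjusted p = 0.209), with slide as a fixed block (1.42, adjusted p = 0.0987), and in a fit of that age alone (1.41, adjusted p = 0.0612). At 12 weeks the same difference was 1.23 ± 0.30 (adjusted p = 0.0948), and 0 of 3 genes passed against 0.255% of all features (59). Nr1d2 passed at an unadjusted p under 0.05, as did 2692 of the 23119 features. Nr1d1 at ZT2 differed by 0.46 ± 0.69 at 30 weeks (adjusted p = 0.883) and by 1.36 ± 0.69 at 12 weeks (SE, n = 2 each, adjusted p = 0.455).

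At ZT10, where the NS means of Nr1d1 and Nr1d2 were highest, CJ and NS mice were not separated by the test. For Nr1d1 the NS levels at ZT10 and ZT2 were not separated from each other either. Nr1d1 differed by -0.95 ± 0.55 at 30 weeks (adjusted p = 0.526) and by -1.83 ± 0.55 at 12 weeks (SE, n = 3 each, adjusted p = 0.0876). The 12-week Nr1d1 difference did pass after normexp, in the table that the authors deposited, and with dim signals set as above. Nr1d2 differed by -0.27 ± 0.24 at 30 weeks (adjusted p = 0.71) and by -0.46 ± 0.24 at 12 weeks (adjusted p = 0.326). The calls were 0 of 3 at either age, against 0.735% of all features at 30 weeks and 1.72% at 12 weeks. At an unadjusted p under 0.05 Nr1d1 passed at 12 weeks, as did 3905 of the 23119 features. Acinar markers were high in some of these livers, with a mean of 1.35 (-3.94 to 4.12, n = 3) over 13 genes in CJ mice at ZT10 of 12 weeks and of -3.25 (-4.13 to -1.50, n = 3) in NS mice. With the acinar and muscle marker levels as covariates the 12-week ZT10 difference was -1.35 for Nr1d1 (adjusted p = 0.464) and -0.23 for Nr1d2 (adjusted p = 0.773).

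For Rora the differences between CJ and NS mice at single times lay between -0.53 ± 0.24 (ZT2, 30 weeks, SE, n = 2 each, adjusted p = 0.332) and -0.12 ± 0.19 (ZT10, 30 weeks, SE, n = 3 each, adjusted p = 0.871). None of the 6 passed in limma, and 1 of 6 had an unadjusted p under 0.05. At that cut 2692 to 3905 of the 23119 features passed in these comparisons.

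Slides held 4 arrays each, and 4 of the 8 slides held a CJ and an NS mouse of the same time and age. In both ZT18 pairs the NS array was not well above background for Nr1d1, which stood at -0.43 in the CJ mouse against -4.81 in the NS mouse at 30 weeks, and at -0.55 against -4.59 at 12 weeks. Within the same slides Nr1d2 was higher in the CJ mouse by 1.88 at 30 weeks and by 2.13 at 12 weeks. At ZT10 the within-slide differences were -0.90 at 30 weeks and -1.15 at 12 weeks for Nr1d1, and -0.64 at 30 weeks and -0.18 at 12 weeks for Nr1d2. Rora was lower in the CJ mouse on all 4 slides, with differences from -0.60 to -0.21. The ZT18 differences of Nr1d2 were thus as large within a slide as in the fit. No slide held 2 times of one schedule and age.

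**Figure D2:**
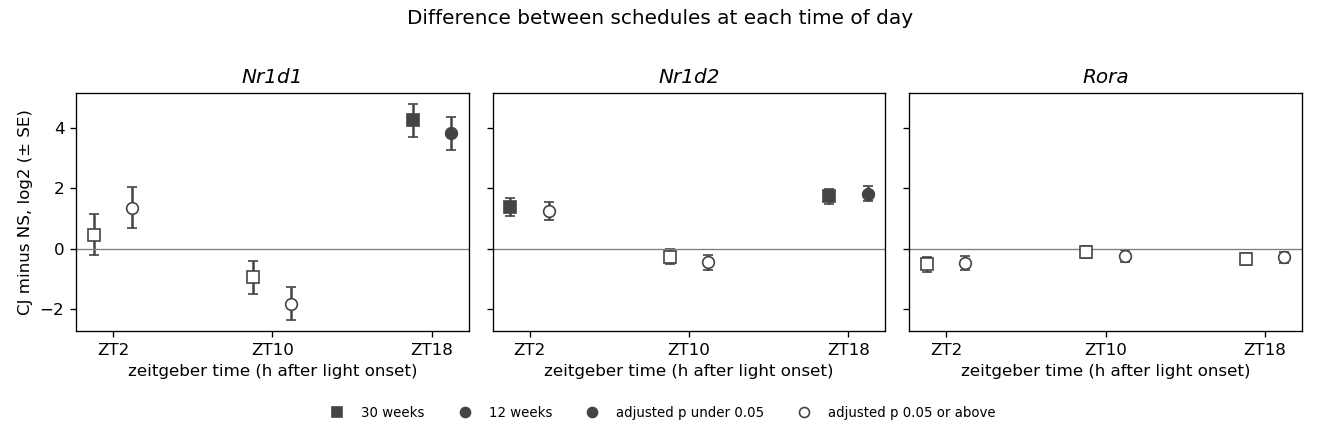
Difference between CJ and NS mice (y axis, log2, CJ minus NS, with its SE) at each ZT in hours (x axis) for Nr1d1, Nr1d2 and Rora, with 30 weeks as squares and 12 weeks as circles. Filled symbols have an adjusted p under 0.05, which holds for Nr1d1 and Nr1d2 at ZT18 and for Nr1d2 at ZT2 of 30 weeks.

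Averaged over the 3 times, Nr1d2 was higher in CJ mice at both ages. Its mean rose by 0.94 ± 0.14 at 30 weeks, which is 1.92-fold (SE, n = 8 each, adjusted p = 0.000273), and by 0.86 ± 0.14 at 12 weeks, which is 1.82-fold (adjusted p = 0.00155). For Nr1d1 the mean difference was 1.25 ± 0.33 at 30 weeks (adjusted p = 0.0228) and 1.12 ± 0.33 at 12 weeks (adjusted p = 0.0529). For Rora it was -0.34 ± 0.11 at each age (adjusted p = 0.0747 at 30 weeks and 0.0803 at 12 weeks). So 2 of 3 genes passed at 30 weeks, against 6.25% of all features, and 1 of 3 at 12 weeks, against 4.44%. The Nr1d1 call at 30 weeks did not hold with no slide block (1.30, adjusted p = 0.0604), in a fit of that age alone (1.28, adjusted p = 0.05), or after normexp background correction (0.46, adjusted p = 0.0717). It was also lost without CJ ZT2 mouse 1 (1.28, adjusted p = 0.0733), CJ ZT2 mouse 2 (1.23, adjusted p = 0.0544), NS ZT2 mouse 2 (1.03, adjusted p = 0.122) or NS ZT18 mouse 3 (1.04, adjusted p = 0.0511). In the table that the authors deposited, Rora passed at 30 weeks (-0.28, adjusted p = 0.0491) and at 12 weeks (-0.28, adjusted p = 0.0472). A higher mean of log2 levels can come from a shallower trough alone, and the Nr1d2 levels of CJ mice at ZT10 were not above those of NS mice.

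No receptor differed between the ages past the threshold. Relative to 12 weeks, the mean over the times at 30 weeks differed in CJ mice by 0.13 ± 0.33 for Nr1d1 (SE, n = 8 each, adjusted p = 0.847), by 0.11 for Nr1d2 (adjusted p = 0.683) and by -0.16 ± 0.11 for Rora (adjusted p = 0.404). In NS mice the differences were -0.01 for Nr1d1, 0.03 for Nr1d2 and -0.17 for Rora. In limma 0 of these 6 passed, also at an unadjusted p under 0.05, against 5.3% of all features in CJ mice and 0.913% in NS mice. Of 6 tests of age by time of day, 0 passed adjusted or unadjusted, against 0.389% of all features in CJ mice and 0.151% in NS mice.

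Likeness of pattern was measured as Pearson's r over the 12 group means. Nr1d2 ran with Dbp, a clock output activator (r = 0.92), and opposite to Arntl (r = -0.87). With Dbp it had r = 0.87 over the CJ means and 0.90 over the NS means, and with Arntl -0.70 and -0.97. Nr1d1 did not share this pattern: with Dbp it had r = 0.36, which was -0.64 over the CJ means and 0.31 over the NS means. With Arntl it had r = -0.41, which was 0.75 over the CJ means and -0.50 over the NS means. The REV-ERB genes themselves had r = 0.67, which was -0.24 over the CJ means and 0.70 over the NS means. The Nr1d1 values over all groups and over the NS means rest on NS mice at ZT18. There 1 of 3 arrays at 30 weeks and 0 of 3 at 12 weeks were well above background. Over the 16 CJ arrays Nr1d1 had r = -0.24 with Dbp, 0.47 with Arntl and -0.02 with Nr1d2. For Nr1d2 they gave r = 0.81 with Dbp and -0.63 with Arntl. Groups share arrays and slides between genes, so these values only describe likeness.

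By the same measure, over the 2990 genes whose group means spanned at least 1 log2 unit, the genes most like Nr1d2 were Abcg5 (r = 0.97), Tesmin (0.96), Abcg8 (0.93) and Pnpla2 (0.93). Abcg5 and Abcg8 encode the paired sterol exporter of the canalicular membrane, and Pnpla2 encodes the triglyceride lipase ATGL. Among the most opposite were Ppard (r = -0.95), Dnmt3b (-0.95) and Ppp1r3c (-0.95), of which Ppard encodes the nuclear receptor PPAR delta. For Nr1d1 the nearest were Wdr6 (r = 0.91), Soat2 (0.88), Lrit1 (0.88) and Rbms1 (0.88), and the most opposite Ccdc151 (-0.94) and Rbm12b1 (-0.92). These Nr1d1 values too rest on the NS means at ZT18, which lie near background. For Rora the nearest was Ttc21b (r = 0.95 over group means, but 0.60 over the 32 arrays).

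Genes upstream of the REV-ERB genes were taken as a list of 11 clock activators and E-box repressors. In CJ mice 3 of them varied over the day at 30 weeks (Bhlhe40, Per1 and Per2) and 4 at 12 weeks (Ciart, Per1, Per2 and Per3). In NS mice 11 of 11 did at both ages. All features passed at 3.62% (CJ) and 11.2% (NS) at 30 weeks and at 5.7% (CJ) and 17.4% (NS) at 12 weeks. The median range of the list was 0.87 in CJ and 2.55 in NS mice at 30 weeks, beside 0.27 and 0.31 over all features, and 1.35 and 3 at 12 weeks, beside 0.29 and 0.34. The range was smaller in CJ mice for 11 of 11 genes at 30 weeks and 10 of 11 at 12 weeks, which over all features held for 54.8% and 59.2%. The interaction passed for 6 of 11 at each age, Arntl, Ciart, Clock, Cry1 and Per3 at both, against 1.97% of all features at 30 weeks and 1.9% at 12 weeks.

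Dbp, Tef and Hlf, the PAR bZIP activators of D-boxes, and Nfil3, the repressor at the same sites, formed a list of 4. In CJ mice 0 of 4 varied at 30 weeks in limma, against 3.62% of all features, and 2 of 4 at 12 weeks (Hlf and Tef), against 5.7%. At an unadjusted p under 0.05, 2 of 4 varied in CJ mice of 30 weeks, as did 3858 of the 23119 features. In NS mice 4 of 4 varied at both ages, against 11.2% of all features at 30 weeks and 17.4% at 12 weeks. The interaction passed for Dbp, Nfil3 and Tef at both ages, against 1.97% of all features at 30 weeks and 1.9% at 12 weeks. Dbp was higher in CJ mice at ZT18 by 3.05 ± 0.42 at 30 weeks (SE, n = 3 each, adjusted p = 0.000368) and by 2.85 ± 0.42 at 12 weeks (adjusted p = 0.000459), the time at which Nr1d1 and Nr1d2 were higher as well.

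Among the 20 genes described as targets, 3 varied over the day in CJ mice and 12 in NS mice at 30 weeks, and 5 in CJ mice and 13 in NS mice at 12 weeks. Over all features the shares were 3.62% in CJ and 11.2% in NS mice at 30 weeks, and 5.7% and 17.4% at 12 weeks. The list shares Arntl, Clock, Cry1 and Npas2 with the upstream list and Nfil3 with the PAR bZIP list. Of those called in NS mice, 8 of 12 at 30 weeks and 9 of 13 at 12 weeks were lowest at ZT10, the time at which Nr1d2 was highest. The genes shared with the other lists, Arntl, Clock, Cry1, Npas2 and Nfil3, were among these at both ages. The share lowest at ZT10 among all called features was not counted, so an excess in this list was not tested. Lpin1, a phosphatidate phosphatase, and Pck1, the gluconeogenic carboxykinase, were among those highest at ZT10 instead. The median range of the list was 0.75 in CJ and 1.96 in NS mice at 30 weeks, beside 0.27 and 0.31 over all features, and 0.48 and 1.63 at 12 weeks, beside 0.29 and 0.34. The range was smaller in CJ mice for 14 of 20 genes at 30 weeks and for 18 of 20 at 12 weeks, against 54.8% and 59.2% of all features. The interaction passed for 8 of 20 at 30 weeks and 10 of 20 at 12 weeks, against 1.97% and 1.9%.

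Arntl, which carries the core at +31, was the target with the widest range in NS mice. CJ mice of 30 weeks had -2.01 and 1.03 at ZT2, -1.64, -1.07 and -1.09 at ZT10, and -0.59, -0.54 and -0.91 at ZT18. In NS mice of 30 weeks they were 2.03 and 2.10 at ZT2, -4.89, -3.16 and -4.45 at ZT10, and 1.74, 1.61 and 1.54 at ZT18. The schedules did not overlap at any of these times, with CJ mice higher at ZT10 and lower at ZT2 and ZT18, the reverse of Nr1d2 at ZT2 and ZT18. Over all features 52.4% did not overlap at ZT2, with 2 mice per schedule, 14.7% at ZT10 and 23.3% at ZT18. The 2 CJ mice at ZT2 also lay far apart. At ZT10 2 of the 3 NS arrays were not well above background.

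At 12 weeks Arntl stood in CJ mice at 1.08 and 0.27 at ZT2, -1.52, -0.06 and -1.19 at ZT10, and -1.27, -0.75 and -0.52 at ZT18. NS mice of 12 weeks had 1.99 and 2.13, then -3.83, -3.62 and -3.48, and then 1.77, 1.37 and 1.64. The difference at ZT10 was 2.73 ± 0.50 at 30 weeks (SE, n = 3 each, adjusted p = 0.0152) and 2.72 ± 0.50 at 12 weeks (adjusted p = 0.00943). Both ZT10 values are fitted on NS groups with only 1 of 3 arrays (30 weeks) and 2 of 3 arrays (12 weeks) well above background. At ZT18 it was -2.17 ± 0.50 at 30 weeks (adjusted p = 0.0164) and -2.50 ± 0.50 at 12 weeks (adjusted p = 0.00736).

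Nfil3, with its core at -12, followed the same order. At ZT10 it was higher in CJ mice by 1.46 ± 0.26 at 30 weeks (SE, n = 3 each, adjusted p = 0.0113) and by 1.21 ± 0.26 at 12 weeks (adjusted p = 0.0186). At ZT2 it was lower by -1.57 ± 0.32 at 30 weeks (SE, n = 2 each, adjusted p = 0.014) and by -1.65 ± 0.32 at 12 weeks (adjusted p = 0.0288). Insig2, an inhibitor of sterol-regulated SREBP processing with its core at -199, was lower in CJ mice at ZT18 by -1.31 ± 0.29 at 30 weeks (SE, n = 3 each, adjusted p = 0.0125) and by -1.15 ± 0.29 at 12 weeks (adjusted p = 0.0332). G6pc, the glucose-6-phosphatase of gluconeogenesis, and Plin2, a lipid droplet coat protein, carry a core too but passed no test of time of day or interaction. Their ranges in NS mice were 0.28 and 0.53 at 30 weeks (adjusted p = 0.933 and 0.212) and 0.53 and 0.52 at 12 weeks (adjusted p = 0.699 and 0.178).

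**Figure D3:**
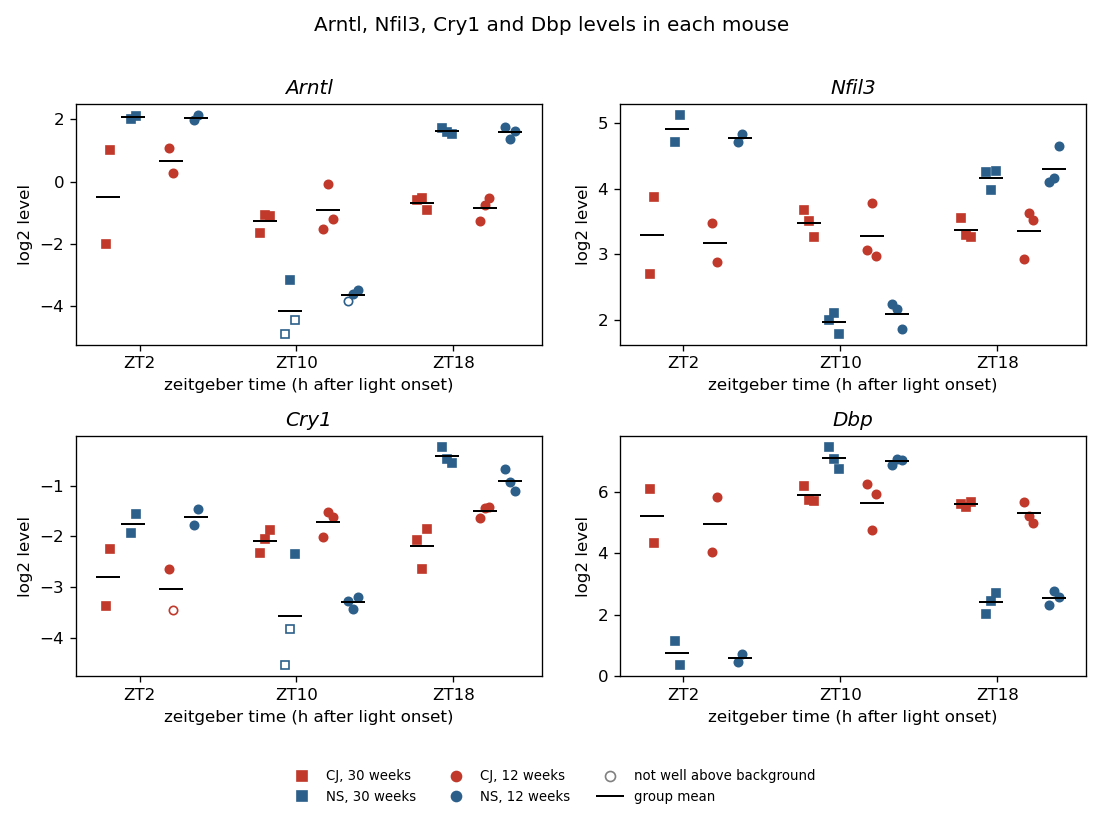
Levels of Arntl, Nfil3, Cry1 and Dbp in each mouse (y axis, log2 relative to the 75th percentile of the array) by ZT in hours (x axis), drawn as for the receptors. At ZT10 the CJ mice lie above the NS mice for Arntl and Nfil3 and below them for Dbp. Over all features 14.7% did not overlap at that time at 30 weeks and 18.4% at 12 weeks.

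At ZT18, where the REV-ERB genes were higher in CJ mice, 7 of the 20 targets were lower and 2 higher at 30 weeks, and 5 were lower and 3 higher at 12 weeks. Over all features 1.77% were lower and 1.7% higher at 30 weeks, and 1.89% lower and 0.943% higher at 12 weeks. Arntl, Avpr1a, Elovl3 and Insig2 were among those lower at both ages, and Lpin1 was among those higher at both ages. Elovl3, a fatty acid elongase, differed by -3.11 ± 0.51 at 30 weeks (SE, n = 3 each, adjusted p = 0.0014) and by -2.69 ± 0.51 at 12 weeks (adjusted p = 0.00479). Lpin1 differed by 2.48 ± 0.33 at 30 weeks (adjusted p = 0.000258) and by 1.38 ± 0.33 at 12 weeks (adjusted p = 0.022). At ZT10, where the REV-ERB difference did not pass, 2 of 20 were higher and 0 lower at 30 weeks, and 6 higher and 0 lower at 12 weeks, among them Cry1, a clock repressor, and Cyp7b1, an oxysterol hydroxylase. Over all features 0.195% were higher and 0.541% lower at ZT10 of 30 weeks, and 0.861% each way at 12 weeks. Marker means of other cell types also differed between schedules at ZT10. Among single markers, 0 of 11 muscle and 0 of 7 acinar genes tested passed there at either age. The muscle marker mean was -0.17 (-3.84 to 3.17) in CJ and -3.19 (-4.06 to -1.62) in NS mice at 30 weeks, and 0.16 (-0.82 to 1.01) in CJ and -2.95 (-4.58 to -2.12) in NS mice at 12 weeks (n = 3 each). The acinar mean was -0.07 (-3.34 to 1.66) in CJ and -1.78 (-4.04 to 2.39) in NS mice at 30 weeks, beside the 12-week values above. With both marker levels as covariates, 32 features passed at ZT10 of 30 weeks instead of 170, and 8 instead of 398 at 12 weeks. The muscle marker mean also differed in the 12-week ZT18 comparison, where 0 of 11 muscle genes passed. The part of the markers in the target calls was not tested gene by gene.

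**Figure D4:**
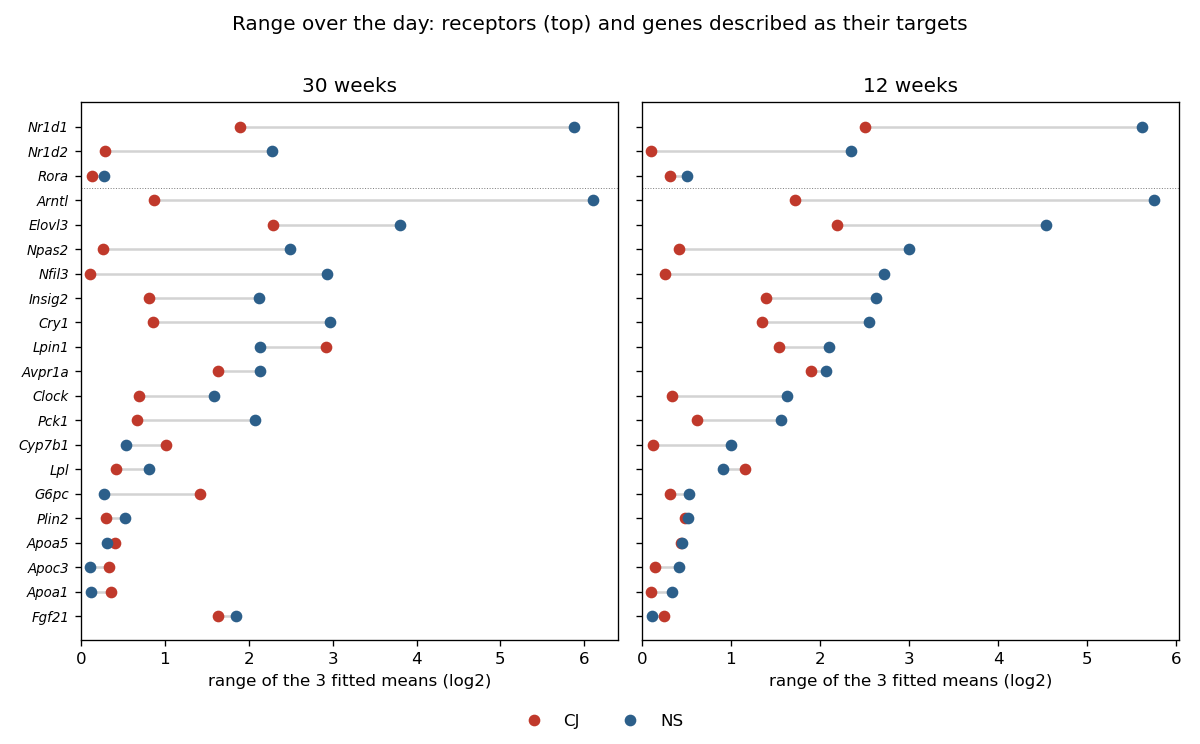
Range over the day (x axis, log2, highest minus lowest of 3 fitted means) in CJ mice (red) and NS mice (blue) at 30 weeks (left) and 12 weeks (right), for the 3 receptors above the dotted line and 18 of the 20 genes described as their targets below it. Nr1d1, Nr1d2 and Arntl lie far to the right in NS mice, and the CJ points lie to the left of the NS points for 12 of the 18 targets drawn at 30 weeks and 16 of 18 at 12 weeks.

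Partners of the receptors were counted in the same tests. Of 6 genes of the NCOR1 and HDAC3 corepressor complex, 0 varied with time of day in any of the 4 tests, against the 3.62% to 17.4% of all features given above, and 0 showed an interaction in limma, against 1.97% and 1.9%. At an unadjusted p under 0.05, 3 of the 6 varied in NS mice of 30 weeks, 2 in NS mice of 12 weeks and 0 passed in the other tests. At that cut 5468 of the 23119 features varied in NS mice of 30 weeks and 7141 in NS mice of 12 weeks. Of 6 genes that control REV-ERB protein stability, 0 passed these tests, with at most 1 in each at an unadjusted p under 0.05. Of 10 genes of haem synthesis and breakdown, which set the supply of the REV-ERB ligand, 2 varied in CJ mice at each age. In NS mice 3 varied at each age. The interaction passed for 0 of the 10, and at an unadjusted p under 0.05 for 3 at 30 weeks and 2 at 12 weeks. At that cut it passed for 3190 of the 23119 features at 30 weeks and 3458 at 12 weeks. Alas1, the rate-limiting enzyme of haem synthesis, had a range of 1.24 in CJ mice (adjusted p = 0.247) and 2.23 in NS mice (adjusted p = 0.00767) at 30 weeks, and of 2.04 in CJ mice (adjusted p = 0.0318) and 3.42 in NS mice (adjusted p = 9.99e-05) at 12 weeks. It was higher in CJ mice at ZT18 of 30 weeks by 1.72 (adjusted p = 0.0246).

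Of 7 coactivators of ROR proteins, Ppargc1b, a coactivator of mitochondrial and lipid genes, showed an interaction at 30 weeks (range 1.68, adjusted p = 0.0087) and at 12 weeks (range 1.74, adjusted p = 0.0165), 1 of 7 at each age. Among 29 other nuclear receptors expressed in liver, the interaction passed for Ppard at 30 weeks (range 2.45, adjusted p = 0.000138) and at 12 weeks (range 2.15, adjusted p = 5.07e-05). In all 1 of 29 passed at 30 weeks and 2 of 29 at 12 weeks, beside 1.97% and 1.9% of all features. Averaged over the times, Ppard fell by 1.23 ± 0.09 at 30 weeks and by 1.05 ± 0.09 at 12 weeks in CJ mice relative to NS mice (SE, n = 8 each), opposite in sign to Nr1d2.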

How the data were processed

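Liver RNA of 32 mice was measured on 1-colour (Cy3) Agilent arrays. The intensity values are the processed signals the authors deposited, which per the file headers are background-subtracted by Agilent Feature Extraction 11.0.1.1 (9.1 per the submitters' processing notes). The log2 table the authors deposited served as an alternative. Per the series' design text it is normalised and freed of a batch effect, with method, batch and centring not given in the sources used here, and its column medians lie between 9.82 and 9.90.

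Control and outlier spots were left out and spots of a probe averaged. Signals were scaled to the array's 75th percentile and log2-transformed. A probe was kept when every array of 1 or more groups had it well above background (30497 probes), with the brightest probe for each gene. Symbols came from RefSeq identifiers (GRCm38.p6), and 14092 of 23119 features had one. The 12 group means were fitted in R 4.3.3 by limma 3.58.1, with data.table version 1.17.8 for input and slide as a random block (8 slides, correlation 0.255), and p-values were adjusted by Benjamini-Hochberg over all features, with a threshold of 0.05. The fit was tested on simulated data. Fitted differences allow for slide and can differ slightly from differences of plain means. In the bounds, signals below the lowest one well above background on that array were set to it, and dim signals above it were kept.

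Labels give 1 mouse per array and nothing on litters, and mouse numbers did not pair across groups. The members and lists were chosen with earlier results of these data known. Named genes were up to 4 called members of each list by size of change, the genes with a motif match, and the nearest genes by correlation. Alternatives were another scaling, normexp, the authors' table, filters, a floor, slide and number blocks, single ages, marker covariates and leaving out each mouse. Some genes are not reported here.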

Additional observations from a re-analysis of the deposited data

Results flagged for a closer look

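The difference in daily profile between CJ and NS mice passed the interaction test for both REV-ERB genes at each age. The range of the difference between schedules over the 3 times was 5.19 for Nr1d1 and 2.00 for Nr1d2 at 30 weeks, and 5.66 for Nr1d1 and 2.29 for Nr1d2 at 12 weeks (log2). Both Nr1d1 ranges are fitted values, since the NS mice at ZT18 had 1 of 3 arrays well above background at 30 weeks and 0 of 3 at 12 weeks. The muscle marker means of NS mice were higher at ZT18 than at the other times at both ages. At ZT18 those means were -2 in CJ and 0.73 in NS mice at 12 weeks, and 1.62 and 1.22 at 30 weeks. With both marker levels as covariates the 12-week calls were lost and the 30-week calls kept.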

How the results depend on the processing

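Of 2868 values of the receptors under alternatives, which include only those pairs of times that passed, 2791 kept their label, 29 lost the call, 23 gained it and 25 changed sign. Ranges, over the day or of an interaction, have no sign and could not change it. Many values also come from fits without a mouse outside the comparison, which could move them little. The count of kept labels is therefore no measure of robustness. With the acinar and muscle covariates 2 of 6 interactions were called instead of 4. For the mean over the times, 6 of 6 tests passed in the authors' table instead of 3, and 2 to 6 when 1 mouse was left out (6 without NS ZT10 mouse 3 of 30 weeks). After normexp, run on the median signals, the range of Nr1d1 in NS mice shrank to 2.87 at 30 weeks and 2.52 at 12 weeks and its ZT18 difference to 1.57 and 1.22, with the calls kept (adjusted p = 0.000765 and 0.00929 for the differences). Normexp also called Nr1d1 in CJ mice of 30 weeks (range 1.65, adjusted p = 0.00328) and at ZT10 of 12 weeks (-1.41, adjusted p = 0.0034), and so did the authors' table (1.89, adjusted p = 0.0101, and -1.38, adjusted p = 0.0349). With dim signals raised to the floor, Nr1d1 also passed at ZT10 of 12 weeks and over the times at 12 weeks. The 12-week mean of Nr1d1 passed without NS ZT18 mouse 3 (1.32, adjusted p = 0.0281) and without 1 of 4 NS mice of 30 weeks (ZT10 mouse 1 or 3, ZT18 mouse 1 or 3, adjusted p = 0.0336 to 0.0496). Nr1d2 at ZT2 of 12 weeks passed without CJ mouse 1 (1.62, adjusted p = 0.0149). Rora over the times passed without NS ZT10 mouse 3 of 30 weeks at 30 weeks (-0.42, adjusted p = 0.0105) and 12 weeks (-0.34, adjusted p = 0.0413), and at 30 weeks without CJ ZT10 mouse 2 or CJ ZT18 mouse 1 (-0.39 each, adjusted p = 0.0484 and 0.0427).

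No difference that passed the test changed sign, and ranges have none. Between pairs of times that did not pass, the difference of Nr1d1 at ZT18 from ZT10 in CJ mice of 12 weeks changed sign in 4 settings (-0.9 to 0.46 over 13) and in 11 of 32 fits without 1 mouse, and that at ZT10 from ZT2 in NS mice of 30 weeks lay between -0.47 and 0.86 without 1 mouse. Leaving out 1 mouse gave -0.20 to 1.12 for Nr1d1 at ZT2 and -0.36 to 0.12 for Rora at ZT10 between schedules at 30 weeks, and -0.04 to 0.26 (CJ) and -0.03 to 0.11 (NS) for Nr1d2 and -0.23 to 0.21 (NS) for Nr1d1 between ages. The age difference of Nr1d2 in NS mice was -0.02 after normexp. That of Nr1d1 in NS mice was 0.06 with array-median scaling, 0.03 in the authors' table and 0.02 with slide as a fixed block. With mouse number as a replicate block it was 0.01, and the block lost no receptor call and added that of Nr1d1 over the times at 12 weeks (1.12, adjusted p = 0.0419). The numbers do not pair the mice (mean correlation -0.019 for equal and 0.01 for unequal numbers).

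Counts over all features moved more. Time of day called 244 to 1648 (CJ, 30 weeks, 837 as reported), 1515 to 4122 (NS, 30 weeks, 2590), 496 to 2340 (CJ, 12 weeks, 1318) and 2590 to 6064 (NS, 12 weeks, 4021). The interaction called 56 to 1239 (30 weeks, 455) and 38 to 830 (12 weeks, 440). Between schedules at ZT2, ZT10 and ZT18 the counts were 67 to 677, 0 to 513 and 266 to 1652 at 30 weeks (314, 170 and 803) and 9 to 766, 8 to 1432 and 214 to 883 at 12 weeks (59, 398 and 654). Over the times they were 615 to 1699 at 30 weeks (1444) and 245 to 1985 at 12 weeks (1027). Array-median scaling moved the median of all features by at most 0.25. Signal near background limits Nr1d1 in NS mice at ZT18.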
